A study of Mus musculus with 167 samples.

Results

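Proteasome subunit transcripts were measured in single LMPPs (lymphoid-primed multipotent progenitors), sorted from bone marrow of 14-month-old and of 4-month-old female C57BL/6J mice. LMPPs are early progenitors of the blood that keep the ability to form lymphoid cells, granulocytes and monocytes, and rarely form megakaryocytes or red cells. The members are the genes whose symbol begins with Psma, Psmb, Psmc, Psmd or Psme followed by a digit, pseudogenes left out, which gave 45 of the 38924 genes in the table. The mice were wild types with no treatment listed, and the sort took lineage-negative, Sca-1+, c-Kit+, CD34+, CD150- cells with high Flt3. Since the labels tie no cell to an animal, each age is 1 sample, and every difference below is a description with no test.

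The proteasome is the protease complex that degrades proteins tagged with ubiquitin. Its core is a barrel of stacked rings, in which the alpha subunits (Psma genes) form the outer rings and gate the channel, and the beta subunits (Psmb genes) form the inner rings. Psmb5, Psmb6 and Psmb7 carry the constitutive active sites. In blood cells and under interferon-gamma they can be replaced by the inducible subunits Psmb8, Psmb9 and Psmb10, which makes the immunoproteasome, known for producing peptides for MHC class I. A cap made of an ATPase ring (Psmc genes) and non-ATPase subunits (Psmd genes) binds and unfolds substrates, and Psme genes encode other caps of the core.

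Values are TPM, a measure of transcript abundance per length in which every cell has an equal total, so sequencing depth is unknown and the number of genes detected (TPM 1 or more) stands in for it. Columns with 1000 or more genes detected entered the comparison, 66 of 84 at 14 months and 64 of 84 at 4 months. The 14-month columns carry a set number, 4 (29 cells kept of 45) or 5 (37 kept of 39), which the sources used here do not explain, and the 4-month columns carry none, so age and capture cannot be told apart. The median number of genes detected was 3281 in 14-month cells (3230 in set 4 and 3376 in set 5) and 3974.5 in 4-month cells, and mitochondrial transcripts took a median of 17.7% of TPM in 14-month cells (20.5% in set 4 and 15.8% in set 5) and 12.4% in 4-month cells. Among 8385 pairs of kept cells 4 pairs, made of 7 cells of 14 months, had a correlation across genes above 0.75, 1 of them across the sets. Without 1 cell of each pair the family's median relative difference, defined below, was -0.0020. Of the genes for the sorted markers, Flt3 was detected in 92.4% of 14-month cells and 100% of 4-month cells, Cd34 in 87.9% of 14-month and 89.1% of 4-month cells, Kit (c-Kit) in 53.0% of 14-month and 67.2% of 4-month cells, and Ly6a (Sca-1) in 37.9% of 14-month and 39.1% of 4-month cells. Markers of other cells at 0 in every kept cell were 2 of 6 of the B lineage (Pax5 among them), 3 of 6 of T and NK cells (Cd3e, Cd3g and Ncr1), 2 of 7 of granulocytes and monocytes (Ly6g and Ltf) and 2 of 7 of erythroid cells and megakaryocytes (Gata1 and Slamf1, which encodes CD150). Cd79b of the B lineage was detected in 24.2% of 14-month and 39.1% of 4-month cells, and Cd79a in 0% of 14-month and 6.25% of 4-month cells. The hemoglobin genes Hba-a1 and Hbb-bt were each detected in 10.6% of 14-month cells, and in 7.81% and 12.5% of 4-month cells. Summed per cell, the B lineage markers ranged from 0 to 971 TPM in 14-month cells and from 0 to 1378 TPM in 4-month cells, the T and NK markers from 0 to 36.9 TPM at 14 months and from 0 to 236 TPM at 4 months, and the erythroid and megakaryocyte markers from 0 to 2232 TPM at 14 months and from 0 to 1150 TPM at 4 months. The summed TPM of 7 granulocyte and monocyte markers ranged from 0 to 364930 in 14-month cells, with the highest cell in set 5, and from 0 to 974 in 4-month cells. Camp alone reached 364930 TPM in that set 5 cell. Camp was detected in 7.58% of 14-month and 0% of 4-month cells, and Ly6c2 in 12.1% and 0%. For S100a8 these shares were 10.6% and 4.69%, and for S100a9 4.55% and 1.56%. Ccr2 went the other way, with 7.58% of 14-month and 15.6% of 4-month cells. The summed TPM of 6 antigen-presenting cell markers ranged from 0 to 2070 in 14-month cells and from 0 to 25224 in 4-month cells. The part of these cells in the results below was not tested.

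A gene was called measured when the mean of the shares of cells with it in both ages was at least 10%, which 9224 genes and 43 of the 45 members met. The members that did not are Psma8, the testis form of Psma7, and Psmb11, the thymic form of Psmb5. Psmc3ip matches the naming rule but encodes a recombination factor that is not a proteasome subunit, and Psme2b is an intronless copy of Psme2 with 99.4% identity over 794 bases, so reads of the pair can be split between them. Proteasome genes were among the more abundant transcripts of LMPPs. The median of their mean TPM was 129 in 14-month cells and 138 in 4-month cells, where the median over all measured genes was 19.7 TPM in 14-month cells and 21.6 TPM in 4-month cells. The median member stood at the 89.1 percentile of measured genes at 14 months and at the 90.4 percentile at 4 months. A 14-month cell held transcripts of 5 to 40 members, with a median of 25.5 (25 in set 4 and 26 in set 5), and a 4-month cell held 4 to 41 with a median of 30.5. The number of members detected in a cell followed its number of genes detected, with Spearman's rho of 0.93 across the 29 cells of set 4, 0.91 across the 37 of set 5 and 0.92 across the 64 cells of 4 months. Both counts come from the same cells and share their depth.

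Summed over all 45 members, proteasome transcripts made up 0.877% of TPM in 14-month cells and 0.745% in 4-month cells. The sum per cell had a lowest, median and highest value of 933, 8996 and 17072 TPM in 14-month cells, against 58.1, 7847 and 12726 TPM in 4-month cells. Its mean was 9140 TPM in set 4, 8487 TPM in set 5 and 8774 TPM over both (SD 3132 over cells), against 7447 TPM in 4-month cells (SD 3252), a ratio of 1.18. The ranges overlap almost whole. Psma3 alone accounts for most of the gap, since the sum over the other members averaged 7327 TPM at 14 months and 7049 TPM at 4 months, with medians of 7324 TPM at 14 months and 7498 TPM at 4 months. The rho of the sum with genes detected was 0.51 in set 4, 0.57 in set 5 and 0.55 in 4-month cells. With the mitochondrial share it was -0.12 in set 4, -0.35 in set 5 and -0.45 in 4-month cells. Since every cell has an equal total, a higher mitochondrial share leaves less TPM for all other genes. With TPM rescaled to leave out mitochondrial transcripts the ratio was 1.33. On that scale the highest 14-month cell, of set 4, had 46385.5 TPM and the next 22700 TPM. Mitochondrial transcripts took 80.6% of TPM in that highest cell, which also had the highest Psma3 value, 7234 TPM before rescaling. The other members averaged 9320 TPM at 14 months and 8223 TPM at 4 months after rescaling, with medians of 9388 and 8471 TPM.

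**Figure D1:**
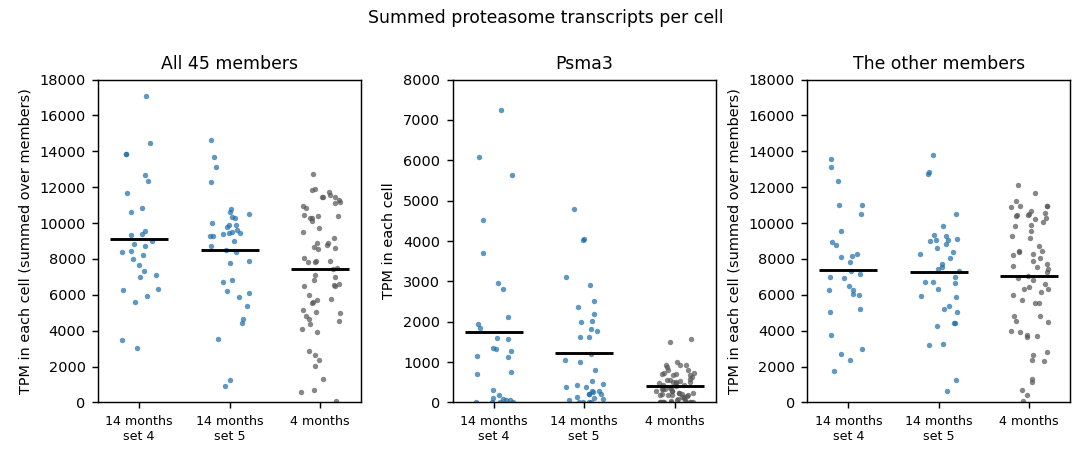
Each point is a cell, with the summed TPM of all 45 members (left), the TPM of Psma3 (middle) and the summed TPM of the other members (right) on the vertical axis, for 14-month cells of set 4 (n = 29) and set 5 (n = 37) and for 4-month cells (n = 64), and bars are means. Psma3 reached 7234 TPM in set 4 and 4785 TPM in set 5, against 1566 TPM in 4-month cells, while the sums of the other members overlap.

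The ages were compared gene by gene on the mean over cells of log2(TPM+1), as 14 months minus 4 months. On this scale the change of low genes comes out too small. The median measured gene was lower at 14 months by 0.36 (0.43 in set 4 and 0.34 in set 5), so differences are given relative to that median and called relative differences. As a family the proteasome genes stood where the median gene stood. The median relative difference of the 43 measured members was 0.04 (0.13 in set 4 and 0.05 in set 5), and 23 of them lay above the median gene, against 50% of measured genes by construction. Before that centring, 13 members had a higher mean at 14 months, where 23% of measured genes did. A relative difference of 1 or more was met by 6 members, against 3.37% of measured genes. One of -1 or less was met by 5 members, against 5.08%. A relative difference of 1 is not a doubling of mean TPM. Psma7, at 1.12, had means of 605 TPM in 14-month cells and 470 TPM in 4-month cells. In set 4 alone, 4 members lay at 1 or more (4.59% of measured genes) and 8 at -1 or less (6.75%), and in set 5 the counts were 7 (6.63%) and 6 (6.56%).

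Large differences are more frequent among broadly detected genes, and 32 members were found in at least 50% of cells. Of these, 6 lay at 1 or more, against 7.09% of the 2326 genes detected as broadly, and 4 lay at -1 or less, against 12.1%. The share of members on the lower side was thus near that of all broadly detected genes, and the share on the higher side was above it. Their median was -0.12, and that of the 2326 genes was -0.15. In 48 cells of each age paired on the number of genes detected, 14 members lay at 1 or more (9.35% of measured genes) and 0 at -1 or less (5.32%), and the family's median was 0.59. Of all broadly detected genes, 20.9% lay at 1 or more there and 10.8% at -1 or less. The broadly detected members had a median of 0.67 in these cells and all broadly detected genes had a median of 0.18. The family's position relative to the median gene therefore depends on whether cells of like detection are compared.

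**Figure D2:**
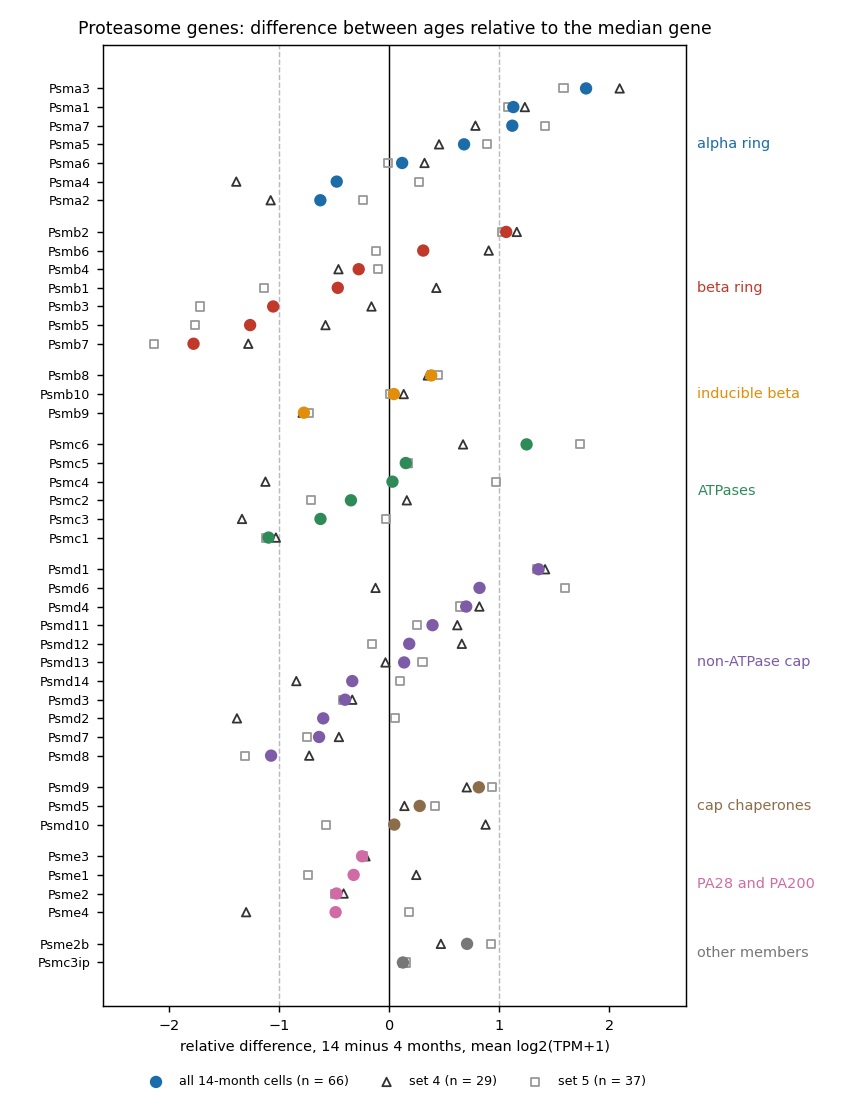
Each row is a measured member, grouped by place in the complex, and the horizontal axis is the relative difference in mean log2(TPM+1), 14 minus 4 months, for all 14-month cells (filled circles, n = 66), set 4 (triangles, n = 29) and set 5 (squares, n = 37), each against the 64 cells of 4 months. Dashed lines stand at -1 and 1, and members of each ring lie on both sides of 0.

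Within the alpha ring, 5 of 7 measured genes lay above the median gene and the group's median was 0.68 (0.45 in set 4 and 0.89 in set 5). Psma3 had the highest relative difference of the family. The gene encodes the alpha7 subunit and lies at chr12:70974621-70996347 on the plus strand (GRCm38, GENCODE). It was detected in 92.4% of 14-month cells (exact 95% interval 83.2 to 97.5%) and in 89.1% of 4-month cells (78.8 to 95.5%), and these intervals, which cover counting error only, overlap. Psma3 had a median of 1020 TPM and a highest value of 7234 TPM in 14-month cells, against a median of 335 TPM and a highest value of 1566 TPM in 4-month cells, and the lowest cell was at 0 in both ages. Its mean was 1744 TPM in set 4, 1214 TPM in set 5 and 1447 TPM over both, against 398 TPM in 4-month cells. Many 14-month cells lie within the 4-month range, and the upper part of their distribution lies above it. On the log2 scale the means were 8.70 at 14 months (SD 3.39 over 66 cells) and 7.27 at 4 months (SD 3.04 over 64 cells), a relative difference of 1.79 (2.09 in set 4 and 1.58 in set 5). A processed pseudogene, Gm13835, is identical to Psma3 over 685 bases and can take its reads. That gene had 15.3 TPM and was found in 7.58% of 14-month cells, against 68.4 TPM and 45.3% of 4-month cells. With the TPM of all near-identical copies added, the relative difference of Psma3 was 1.65.

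Psma1 and Psma7, which encode other subunits of the ring, followed with relative differences of 1.13 and 1.12. Psma1 had a mean of 581 TPM in set 4, 479 TPM in set 5 and 524 TPM over both, against 211 TPM in 4-month cells, but medians of 99.3 TPM at 14 months and 90.1 TPM at 4 months. Its highest cells stood at 5316 TPM at 14 months and 1017 TPM at 4 months. Psma7 had means of 605 TPM in 14-month cells and 470 TPM in 4-month cells and medians of 420 TPM in both ages. Psma5 had a relative difference of 0.68 and Psma6 of 0.12. Psma2 (-0.63) and Psma4 (-0.48) lay below the median gene, and Psma4 lay at -1.39 in set 4 and at 0.27 in set 5. Ring members enter the complex in equal numbers, but the span from lowest to highest mean transcript level was wider at 14 months. Psma3 set its upper end there, and the next highest mean was that of Psma7 (605 TPM). The highest mean TPM of the 7 genes was 8.00 times the lowest at 14 months (1447 against 181 TPM) and 2.23 times at 4 months (470 against 211 TPM).

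The beta ring lay lower than the alpha ring, with 5 of 7 genes below the median gene (4 in set 4 and 6 in set 5). Its median was -0.47 (-0.16 in set 4 and -1.13 in set 5). Psmb7, which encodes the trypsin-like constitutive active site, had the lowest relative difference of the family at -1.78 (-1.28 in set 4 and -2.13 in set 5). The gene lies at chr2:38588036-38644087 on the minus strand. It was detected in 36.4% of 14-month cells (24.9 to 49.1%) and in 59.4% of 4-month cells (46.4 to 71.5%). Its median and highest values were 0 and 224 TPM in 14-month cells, against 17.4 and 1254 TPM in 4-month cells. Its mean was 30.3 TPM in set 4, 15.0 TPM in set 5 and 21.7 TPM over both, against 138 TPM in 4-month cells. The levels above 224 TPM were reached by 4-month cells alone. A miRNA gene on the same strand, Gm27634, lies within Psmb7 and had 34.1 TPM in 14-month cells and 496 TPM in 4-month cells, and how reads were divided between them was not tested. Between cells paired on genes detected the relative difference of Psmb7 was -0.74.

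Psmb5, the chymotrypsin-like constitutive site, lay at -1.26, with -0.58 in set 4 and -1.77 in set 5. Its transcripts were found in 51.5% of 14-month cells (38.9 to 64.0%) and in 70.3% of 4-month cells (57.6 to 81.1%). Its median and highest values were 1.68 and 1575 TPM in 14-month cells, against 69.1 and 1175 TPM in 4-month cells, and its mean was 135 TPM at 14 months (142 TPM in set 4 and 128 TPM in set 5) and 214 TPM at 4 months. Psmb3, a ring subunit with no active site of its own, lay at -1.05, with -0.16 in set 4 and -1.72 in set 5, so that set 5 alone passed the threshold, and lay at 0.20 between 48 cells of each age paired on genes detected. Psmb1 lay at -0.47, with 0.43 in set 4 and -1.13 in set 5, and Psmb4 lay at -0.28. Psmb2, another subunit with no active site, went the other way with a relative difference of 1.06 (1.16 in set 4 and 1.02 in set 5), means of 478 TPM in 14-month cells and 379 TPM in 4-month cells, and detection in 89.4% of 14-month cells (79.4 to 95.6%) and 79.7% of 4-month cells (67.8 to 88.7%). Psmb6, the caspase-like constitutive site, had a median of 270 TPM and a mean of 428 TPM in 14-month cells, against 221 and 369 TPM in 4-month cells, and a relative difference of 0.31 (0.90 in set 4 and -0.12 in set 5). Across this ring the highest mean TPM was 22.0 times the lowest at 14 months and 2.75 times at 4 months. Psmb7 was lowest at 14 months with 21.7 TPM, and the next lowest mean was that of Psmb5 (135 TPM).

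Transcripts of the inducible subunits were present in LMPPs of both ages. Summed per cell, Psmb8, Psmb9 and Psmb10 averaged 612 TPM at 14 months and 617 TPM at 4 months. Psmb8, the counterpart of Psmb5, was the most abundant of the 3, with a median of 234 TPM, a highest value of 2799 TPM and a mean of 430 TPM in 14-month cells (447 TPM in set 4 and 416 TPM in set 5), against a median of 246 TPM, a highest value of 1359 TPM and a mean of 368 TPM in 4-month cells. Its relative difference was 0.38, and it was detected in 84.8% of 14-month cells and 85.9% of 4-month cells. Psmb10, the counterpart of Psmb7, had a median of 16.0 TPM and a mean of 91.2 TPM in 14-month cells (83.1 TPM in set 4 and 97.5 TPM in set 5), against 23.6 and 107 TPM in 4-month cells, a relative difference of 0.04. Psmb9, the counterpart of Psmb6, had a median of 17.3 TPM and a mean of 90.8 TPM in 14-month cells (70.7 TPM in set 4 and 107 TPM in set 5), against 64.4 and 143 TPM in 4-month cells, a relative difference of -0.77 that was close in both sets (-0.79 in set 4 and -0.73 in set 5) but -0.083 between cells paired on genes detected and -1.84 with medians over cells. The cells of both ages overlap over most of their range for each of these genes. Psmb9 and the peptide transporter gene Tap1 share a head-to-head start with 212 bases in common.

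Set against their constitutive counterparts, the inducible subunits took a larger share of 2 pairs at 14 months and a smaller share of the third. Psmb8 made up 76.2% of the summed mean TPM of Psmb8 and Psmb5 in 14-month cells (75.9% in set 4 and 76.4% in set 5), against 63.2% in 4-month cells. Psmb10 made up 80.8% of its pair with Psmb7 (73.3% in set 4 and 86.6% in set 5), against 43.7% in 4-month cells. Psmb9 made up 17.5% of its pair with Psmb6 (12.2% in set 4 and 22.6% in set 5), against 27.9% in 4-month cells. The mean TPM at 14 months was 1.17 times that at 4 months for Psmb8 and 0.628 times for Psmb5, and it was 0.853 times for Psmb10 and 0.158 times for Psmb7. Counted by cell, Psmb8 was above Psmb5 in 53 of the 59 14-month cells with either (89.8%, 79.2 to 96.2%) and in 42 of 57 4-month cells (73.7%, 60.3 to 84.5%). Psmb10 was above Psmb7 in 30 of 43 14-month cells (69.8%, 53.9 to 82.8%) and in 25 of 51 4-month cells (49.0%, 34.8 to 63.4%), and Psmb9 was above Psmb6 in 11 of 56 14-month cells (19.6%) and in 13 of 54 4-month cells (24.1%). The intervals of each pair overlap between the ages.

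**Figure D3:**
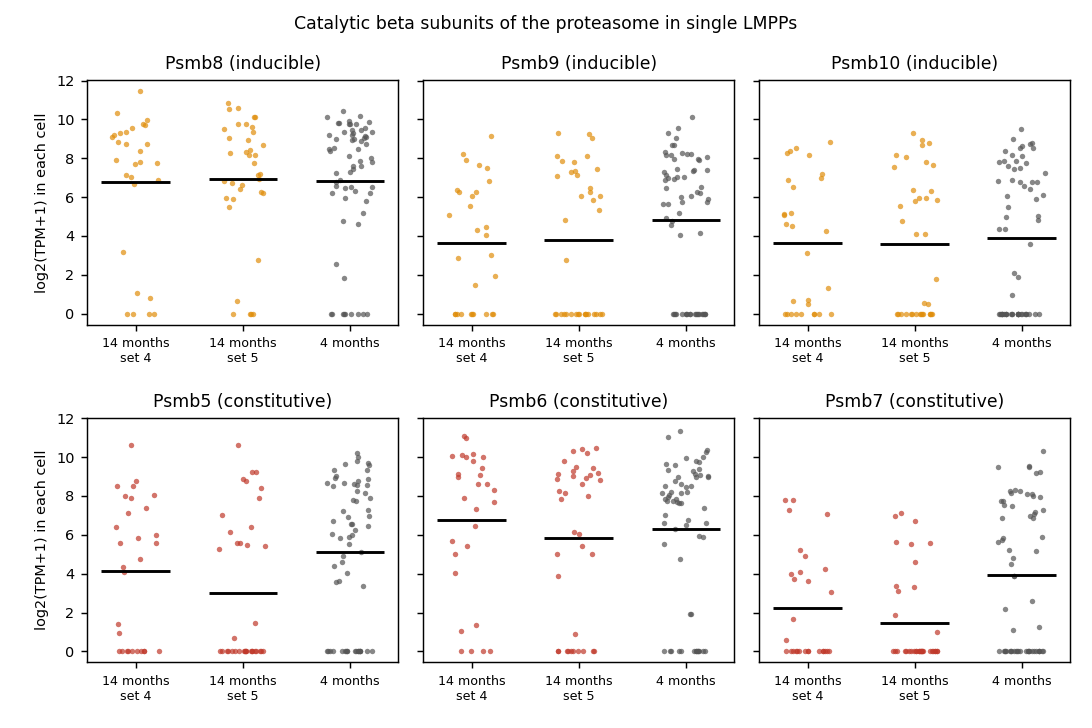
Each point is a cell and the vertical axis is log2(TPM+1) of the 3 inducible subunits (top) and of the constitutive counterpart of each (bottom), in 14-month cells of set 4 (n = 29) and set 5 (n = 37) and in 4-month cells (n = 64), and bars are means. Psmb7 was detected in 36.4% of 14-month cells and 59.4% of 4-month cells, and the points of Psmb8 lie over the same range in all groups.

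In most cells of either age at least 1 gene of each of the following sets was not detected. All of Psmb5, Psmb6 and Psmb7 were detected in 16 of 66 cells of 14 months (24.2%, 14.5 to 36.4%) and in 31 of 64 cells of 4 months (48.4%, 35.8 to 61.3%), intervals that overlap by a narrow margin. All of Psmb8, Psmb9 and Psmb10 were found in 39.4% of 14-month cells and 45.3% of 4-month cells, all of Psma1 to Psma7 in 39.4% of 14-month cells and 46.9% of 4-month cells, and all of Psmc1 to Psmc6 in 21.2% of 14-month cells and 26.6% of 4-month cells. Fewer genes of any kind were detected in 14-month cells, and 8.16% of measured genes had a share whose interval lay wholly below that of 4-month cells, against 0.0867% wholly above. In the family 1 member lay wholly below and 0 wholly above. The member was Psmd3, a scaffold subunit of the cap, detected in 13.6% of 14-month cells (6.43 to 24.3%) and 39.1% of 4-month cells (27.1 to 52.1%). Its mean was 13.5 TPM at 14 months, most of it from a single cell at 520 TPM, and 11.6 TPM at 4 months. In set 4 alone the member wholly below was Psme4 instead, and in set 5 alone it was Psmb3. For the sets apart no share of all measured genes is given, so these calls are not read as a result about the family.

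The ATPase ring had members on both sides and a median of -0.16 (-0.43 in set 4 and 0.07 in set 5). Psmc6 (chr14:45329788-45349705, plus strand) lay at 1.25, which was 0.67 for set 4 and 1.73 for set 5. Its median and highest values were 44.7 and 1277 TPM in 14-month cells, against 9.41 and 706 TPM in 4-month cells, and its mean was 137 TPM in set 4, 247 TPM in set 5 and 198 TPM over both, against 86.6 TPM in 4-month cells. It was detected in 59.1% of 14-month cells and 64.1% of 4-month cells, so cells with Psmc6 were not more frequent at 14 months. Psmc1 (chr12:100110154-100123405, plus strand) lay at -1.10, with -1.03 in set 4 and -1.11 in set 5. Its median and highest values were 11.5 and 492 TPM in 14-month cells, against 63.3 and 1443 TPM in 4-month cells, and its mean was 97.8 TPM at 14 months (85.8 TPM in set 4 and 107 TPM in set 5) and 188 TPM at 4 months. Psmc4 and Psmc3 differed between the sets, with -1.12 and -1.34 in set 4 and 0.97 and -0.03 in set 5. Psmc2 lay at -0.35 and Psmc5 at 0.15. The range of mean TPM in this ring was alike in both ages, the highest being 2.53 times the lowest at 14 months and 2.17 times at 4 months.

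The 11 non-ATPase cap genes had a median of 0.14 (-0.12 in set 4 and 0.10 in set 5). Psmd1, a large scaffold subunit of the cap (chr1:86064387-86139151, plus strand), was highest with a relative difference of 1.36 that was close in both sets (1.42 in set 4 and 1.34 in set 5). Its median and highest values were 5.84 and 2069 TPM in 14-month cells, against 3.03 and 486 TPM in 4-month cells, and its mean was 161 TPM in set 4, 104 TPM in set 5 and 129 TPM over both, against 45.1 TPM in 4-month cells. Without the highest cell of each age the means were 99.0 TPM at 14 months and 38.1 TPM at 4 months. Psmd8, a lid subunit, was lowest at -1.07 (-0.73 in set 4 and -1.31 in set 5), with means of 81.6 TPM at 14 months and 221 TPM at 4 months. Its highest cells stood at 918 TPM in 14-month cells and 4591 TPM in 4-month cells, and without them the means were 68.8 TPM at 14 months and 152 TPM at 4 months. The ubiquitin receptor gene Psmd4 lay at 0.70 and the lid gene Psmd6 at 0.82 (-0.12 in set 4 and 1.59 in set 5). With the chaperone gene Psmd9 at 0.81 and Psme2b at 0.71, they stood next below the threshold of 1. Psmd11 (0.39), Psmd12 (0.18), Psmd13 (0.14), Psmd14 (-0.34), Psmd3 (-0.40), Psmd2 (-0.60) and Psmd7 (-0.64) lay between. Psmd2 lay at -1.38 in set 4 and at 0.05 in set 5. Psmd14 encodes the deubiquitinase of the cap, and it averaged 284 TPM in 14-month cells and 162 TPM in 4-month cells although it was detected in 54.5% of 14-month cells and 70.3% of 4-month cells. The cap chaperones Psmd5, Psmd9 and Psmd10, which help to assemble the ATPase ring, had a median of 0.28, and Psmd10 lay at 0.88 in set 4 and at -0.57 in set 5.

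The activators all lay below the median gene, by less than the threshold. Psme1 and Psme2 encode the paired subunits of PA28, a cap induced by interferon-gamma together with the immunoproteasome. Psme1 had a median of 346 TPM, a highest value of 2622 TPM and a mean of 471 TPM in 14-month cells (574 TPM in set 4 and 391 TPM in set 5), against 421, 2747 and 535 TPM in 4-month cells, and lay at -0.32, which was 0.25 for set 4 and -0.73 for set 5. Psme2 had a median of 81.2 TPM and a mean of 248 TPM in 14-month cells (219 TPM in set 4 and 271 TPM in set 5), against 154 and 283 TPM in 4-month cells, a relative difference of -0.48 that was -0.09 with its copy Psme2b added. Both genes were detected together in 62.1% of 14-month cells and 70.3% of 4-month cells. Psme3, the nuclear PA28 gamma, averaged 27.0 TPM at 14 months, where 28.8% of cells had it, and 20.7 TPM at 4 months, where 45.3% did, and lay at -0.25. Psme4, the PA200 activator, lay at -0.49, with -1.30 in set 4 and 0.18 in set 5. Its mean of 31.2 TPM at 14 months rests on a set 5 cell at 1339 TPM, and with the top cell of each age left out the means were 11.1 TPM at 14 months and 22.5 TPM at 4 months. Between cells paired on genes detected, Psme1 lay at 0.13 and Psme2 at 0.62, so their place below the median gene is not kept there. Psme1 lay at 0.77 with every column kept. The other members named by the rule, Psmc3ip and Psme2b, lay at 0.12 and 0.71.

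**Figure D4:**
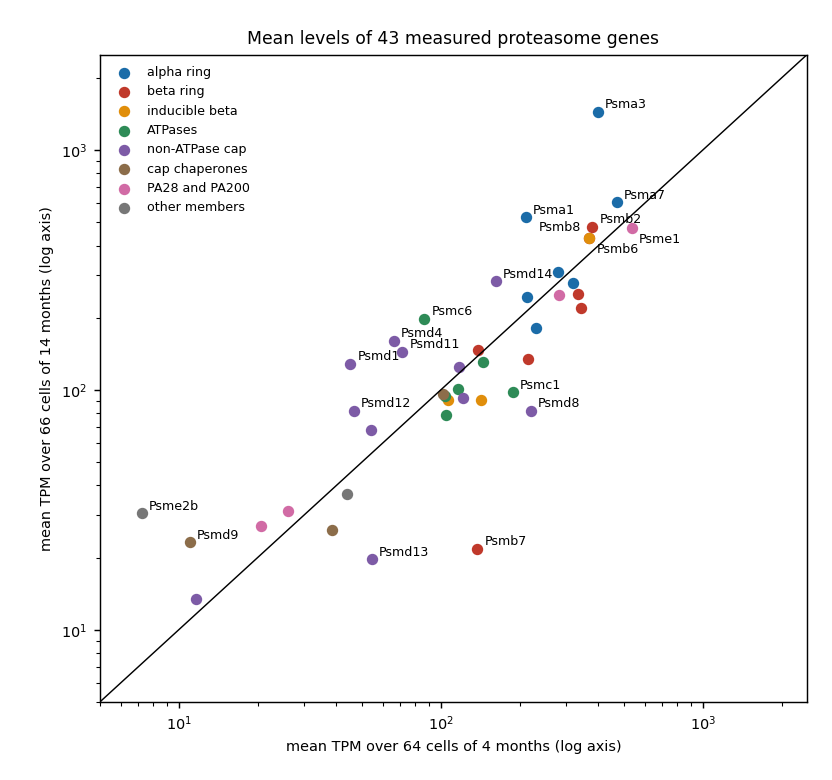
Each point is a measured member, with its mean TPM over 66 cells of 14 months on the vertical axis and over 64 cells of 4 months on the horizontal axis, both logarithmic, coloured by place in the complex, and the line marks equal means. Psma3 lies highest above the line at levels over 100 TPM, at 1447 against 398 TPM, and Psmb7 farthest below it, at 21.7 against 138 TPM.

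The promoters of Psma3 and Psmc6, which lay past 1, of Psmb5, which lay past -1, and of the inducible subunit Psmb8 are shown because the proteasome genes are known to be raised together by Nrf1 (gene Nfe2l1), and the inducible subunits by interferon-gamma. The 250 bases before the RefSeq start (GRCm38.p6) were found for 38 of the 45 members. No entry was used for Psma8, Psmb1, Psmb2, Psmb7, Psmc3, Psmd3 and Psmd7. Each sequence runs 5′ to 3′ on the strand of its gene and capitals mark a motif match. For Psma3 (chr12:70974373-70974622, plus strand) none of the 3 motifs searched matched.
Psma3: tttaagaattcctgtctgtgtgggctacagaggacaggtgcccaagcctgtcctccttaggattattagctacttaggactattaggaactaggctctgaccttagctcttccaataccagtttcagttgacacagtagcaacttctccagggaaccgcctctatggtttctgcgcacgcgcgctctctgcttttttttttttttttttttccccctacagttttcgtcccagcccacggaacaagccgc
In Psmc6 (chr14:45329574-45329823, plus strand) the capitals are the Nrf element TGACNNNGC read on the opposite strand, 227 to 219 bases before the start.
Psmc6: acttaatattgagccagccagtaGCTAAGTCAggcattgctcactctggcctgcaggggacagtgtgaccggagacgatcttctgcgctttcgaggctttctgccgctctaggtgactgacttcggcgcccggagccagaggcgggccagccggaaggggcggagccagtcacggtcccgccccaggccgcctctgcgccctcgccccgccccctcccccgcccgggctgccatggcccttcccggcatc
In Psmb5 (chr14:54617996-54618245, minus strand) they are the same element in forward direction, 47 to 39 bases before the start.
Psmb5: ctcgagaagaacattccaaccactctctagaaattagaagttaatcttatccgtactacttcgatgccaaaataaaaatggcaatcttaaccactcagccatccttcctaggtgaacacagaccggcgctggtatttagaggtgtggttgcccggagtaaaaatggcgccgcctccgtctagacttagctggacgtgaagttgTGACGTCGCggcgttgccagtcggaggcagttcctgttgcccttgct
In Psmb8 (chr17:34197945-34198194, plus strand), whose RefSeq start used here lies 474 bases after the GENCODE start, they are the gamma-activated site TTCNNNGAA, 97 to 89 bases before the start.
Psmb8: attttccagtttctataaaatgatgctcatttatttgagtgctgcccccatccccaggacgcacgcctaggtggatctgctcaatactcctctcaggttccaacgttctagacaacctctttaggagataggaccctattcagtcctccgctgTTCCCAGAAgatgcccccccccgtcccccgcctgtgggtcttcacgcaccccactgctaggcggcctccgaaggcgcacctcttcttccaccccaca

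Searched on both strands, the Nrf element TGACNNNGC was in the upstream windows of 5 of 38 members, Psmb5, Psmb6, Psmc6, Psmd9 and Psmd12, and in 10.2% of 32851 promoters of the same length. The relative differences of these 5 genes run from -1.26 to 1.25, with Psmb5 and Psmc6 at the ends. The interferon-stimulated response element, here a pair of GAAA runs with any 2 bases between them, was found for Psmb3, Psmd4 and Psmd9, 3 of 38 members against 2.98% of promoters, and the gamma-activated site TTCNNNGAA, which reads the same on both strands, for Psmb8 alone, against 7.02%. For Psmb9, which had no match, the RefSeq start used lies 434 bases after the GENCODE start, so the bases before the GENCODE start were not searched. A match is a description of letters and the counts of members are small.

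The other genes of the pathway were taken from 7 lists, whose median relative differences ran from -0.42 to 0.22. Of all measured genes, 3.37% lay at 1 or more and 5.08% at -1 or less, so counts of 0 or 1 in lists this short say little. The assembly factors had 0 of 9 measured genes past the threshold in either direction and a median of 0.21. In set 5 alone 3 of them lay at 1 or more (6.63% of measured genes), and in set 4 alone 1 lay at -1 or less (6.75%). Psmg2, a chaperone of the alpha ring, was highest at 0.83 and Pomp, which matures the core, lowest at -0.62, with a mean of 320 TPM at 14 months and 398 TPM at 4 months. Of 7 measured cap-bound genes 1 lay above, Zfand5 at 1.17, whose protein activates the proteasome, with 195 TPM in 14-month cells and 85.9 TPM in 4-month cells, and the lowest was the cap subunit gene Sem1 at -0.67. Among 10 shuttle and p97 genes none passed the threshold, from the p97 cofactor gene Nploc4 at 0.37 to Vcp, which encodes p97 itself, at -0.89. In set 4 alone 1 of the 10 lay at 1 or more (4.59% of measured genes), and in set 5 alone 1 at -1 or less (6.56%). Among the ubiquitin and E1 genes, the polyubiquitin gene Ubb was highest at 1.02, with nearly equal means of 5030 TPM in 14-month cells and 5067 TPM in 4-month cells. Ubb has a near-identical copy that can share its reads.

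Regulators known to act on proteasome genes were measured as well. Among 5 measured genes of the Nrf1 pathway the lowest was Nfe2l2, which encodes the related factor Nrf2, at -1.29 (-1.34 in set 4 and -1.21 in set 5), with a mean of 9.43 TPM at 14 months, where 22.7% of cells had it, and 94.5 TPM at 4 months, where 42.2% did. The highest was Ngly1, the glycanase that processes Nrf1, at 0.28. Nfe2l1 itself lay at -0.69, with a mean of 6.14 TPM in 14-month cells and 23.5 TPM in 4-month cells, and was detected in 27.3% of 14-month cells and 56.2% of 4-month cells. Of 12 genes for class I peptide loading 1 lay at 1 or more (3.37% of measured genes), the class I heavy chain gene H2-K1 at 1.08. It had 1115 TPM in 14-month cells and 975 TPM in 4-month cells. At -1 or less lay 2 of the 12 (5.08% of measured genes), the chaperones Tapbp and Calr. Tapbp was lowest at -1.10, with 27.8 TPM at 14 months and 63.9 TPM at 4 months. H2-K1 shares long stretches with other class I genes, which can take its reads. Of 12 interferon signalling genes 0 passed the threshold, though in set 4 alone 1 lay at -1 or less (6.75% of measured genes). Of the 12, 8 lay below the median gene, against 50% of measured genes by construction, and their median was -0.42. The lowest was Irf1 at -0.76, which was close in both sets (-0.74 in each), with means of 94.5 TPM in 14-month cells and 99.1 TPM in 4-month cells and detection in 40.9% of 14-month cells and 60.9% of 4-month cells, and the highest was Ifngr2 at 0.43.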

How the data were processed

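RNA of single LMPPs was amplified on a Fluidigm C1 chip, per the labels' protocols, and the authors deposited TPM values for 38924 genes in 168 columns, 1 per cell. The submitters' processing notes name RSEM 1.2.12, Bowtie2 2.2.0 and mm10. The annotation and the strandedness are not given in the sources used here. Each column sums to 1000000, so depth is unknown, and a gene of 1 TPM cannot be told from one missed at low depth. The labels list 83 cells of 14 months and the table has 84 columns, so 1 column has no label of its own. Columns unused numbered 0, and no doublet caller was run.

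Columns with at least 1000 genes at TPM 1 or more were kept. Symbols were found for 37607 of the 38924 identifiers, and coordinates are those of GENCODE (GRCm38). Per gene, log2(TPM+1) (pseudocount 1) was averaged over cells and compared as 14 minus 4 months, less the median over genes whose mean share of cells was at least 10%. Shares have exact (Clopper-Pearson) 95% binomial intervals that cover counting error only. Near-identical copies had at least 95% identity over at least 200 bases of transcript. The calculations were tested on simulated data in which both ages had the detection shares of the 4-month cells. A difference between the ages in genes detected was therefore not covered. With 1 sample per age, no p-value was computed.

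Given in full are the 3 highest and 3 lowest relative differences, Psmb5 to Psmb10 and Psme1 to Psme4, and of each pathway list the highest and the lowest measured gene. Some genes that these rules take are not reported here. Other members are named with values to account for the whole family. The members, lists and rules were chosen with earlier results of these data known. Alternatives changed the pseudocount, cells kept, scaling, summary over cells, sets, and filters on low genes. Those leaving out similar cells, adding copies and leaving out Psmc3ip and Psme2b were chosen after seeing the data. Calculations used pandas 2.3.3, numpy 2.4.6 and scipy 1.17.1 under Python 3.11.15, and matplotlib 3.10.9 drew the figures.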

Additional observations from a re-analysis of the deposited data

How the results depend on the processing

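No paired analysis was possible because the numbers that the ages share count cells and name no animal, and no result comes from a test. A value counted as moved when it changed by more than the SD between the 2 sets of 14-month cells, pooled over results of its kind, and a count when it changed by over 1.5 times. Of the 11 members past the threshold of 1 in size, Psmb3 changed sign, with 0.20 between the cells paired on genes detected, and the other 10 kept their sign under every alternative run. The cause of the moves was not tested.

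Between 48 cells of each age paired on genes detected (within 200 genes), the median relative difference was 0.59 for the family, 1.96 for the alpha ring, 0.43 for the beta ring, 0.53 for the inducible subunits, 0.27 for the ATPases, 0.66 for the non-ATPase cap genes, 0.59 for the cap chaperones and 0.051 for the activators, with 14 members at 1 or more, 0 at -1 or less and a ratio of summed TPM of 1.40. With the median taken over cells instead of the mean, the values were -0.49 for the family, -0.46 for the alpha ring, -0.95 for the beta ring, -0.51 for the inducible subunits, -0.85 for the ATPases and -0.26 for the non-ATPase cap genes, 3 members lay at 1 or more, 12 at -1 or less and 10 above the median gene, and the inducible share of Psmb8 and Psmb5 differed by 21.2 percentage points instead of 13.0. With medians over cells, 1.64% of measured genes lay at 1 or more and 17.0% at -1 or less. Of broadly detected genes, 5.16% lay at 1 or more there and 47.3% at -1 or less. The median difference of measured genes was 0 there, and 21.5% of broadly detected genes lay above it. All broadly detected genes had a median of -0.92 there, Psma7 lay at 0.00063 and Psma1 at 0.14.

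A pseudocount of 0.1 gave 1.16 for the alpha ring, 0.65 for the cap chaperones and 10 members at 1 or more. At that pseudocount 10.6% of measured genes and 13.8% of broadly detected genes lay at 1 or more. A pseudocount of 10 gave 0.30 for the alpha ring, 1 member at 1 or more and 1 at -1 or less. With it, 0.564% of measured genes lay at 1 or more and 1.203% at -1 or less. With every column kept the beta ring lay at -0.054, 1 member at -1 or less (3.28% of measured genes) and the ratio of summed TPM at 1.34. Rescaling without mitochondrial transcripts and over nuclear protein-coding genes gave ratios of 1.33 and 1.31 and 3 members at -1 or less each, as did quantile normalization. Of measured genes, 5.35% lay at -1 or less without mitochondrial transcripts and 3.93% with quantile normalization. The count of members at -1 or less was 2 with at least 2000 genes detected per cell (4.64% of measured genes). It was 2 and 1 over genes in at least 30% and 50% of cells, where the median subtracted was that of the genes kept. The count of 4 broadly detected members given above is relative to the median of all measured genes instead. On that scale the genes in at least 50% of cells had a median of -0.15. In set 4 alone the count was 8 (6.75%). With no filter on low genes the alpha ring lay at 0.17 and 2 members at 1 or more. For the changed filters on low genes and the nuclear protein-coding rescaling no share of all genes is given. Set 5 alone gave -1.13 for the beta ring, and set 4 alone gave 0.70 for the cap chaperones and a difference of 29.6 points for Psmb10 and Psmb7 instead of 37.1.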
